A study of Mesocricetus auratus with 6 samples.

Results

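Osteopontin (Spp1), its surface receptor Cd44 and the integrin subunits Itgav, Itgb1, Itgb3, Itgb5, Itga5 and Itga6 were examined at the implantation site of the golden hamster (Mesocricetus auratus). Every probe set for which the platform annotation gave exactly 1 gene symbol, equal to one of these 8 genes, was taken, with no filter on level. The rule found 20 probe sets, among 22626 tested, for 7 of the 8 genes, out of 12393 genes with such a probe set in all. No probe set had Spp1 as its only symbol in the platform annotation used, so osteopontin itself was not analysed here. Probe sets with several symbols or none were outside the rule, so the array may still hold a probe set for osteopontin. The values below are those of Cd44 and the integrin subunits, called receptor genes here. The 20 probe sets were 2 of Cd44, 3 of Itgav, 6 of Itgb1, 1 of Itgb3, 4 of Itgb5, 2 of Itga5 and 2 of Itga6.

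The samples were uterine tissue of untreated pregnant hamsters on day 5 of pregnancy. One group held 3 arrays of implantation sites, the parts of the uterus that contain an attaching embryo, and the other held 3 arrays of interimplantation sites, the embryo-free tissue between them. Both groups were of the same day and carried no genotype or treatment, and the series' design text gives 3 animals as the source of the RNA sets. The question was which transcripts differ between these places. Each array was an Affymetrix mouse expression array hybridised with hamster RNA. Mismatches between mouse probes and hamster transcripts can lower a signal and shrink a difference, and levels were therefore not ranked between genes.

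Integrins are receptors made of an alpha and a beta chain that link the extracellular matrix to the cytoskeleton. Itgav pairs with Itgb3, Itgb5 or Itgb1 to bind ligands that carry the arginine-glycine-aspartate (RGD) sequence, such as osteopontin and vitronectin, while Itga5 with Itgb1 binds fibronectin and Itga6 with Itgb1 binds laminin. Cd44 binds hyaluronan and also osteopontin. In the uterus of several mammals, integrins and osteopontin at the luminal surface are discussed as part of the attachment of the blastocyst.

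No receptor transcript passed the test between the sites. With limma and Benjamini-Hochberg adjustment over all probe sets, 0 of the 20 receptor probe sets were called at an adjusted p under 0.05, where 2.31% of all tested probe sets were called. The smallest adjusted p among them was 0.148 (Itga5) and the largest 0.999 (Itga6). At an unadjusted p under 0.05 there were 3 of 20, beside 14% of all probe sets, and 3 of 20 had no overlap between the groups, beside 19.3% of all probe sets. The two-sided exact permutation test of single probe sets reached at best 0.1, which is the smallest p that 3 against 3 arrays allow.

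The differences, given as implantation minus interimplantation on the log2 scale, ran from −0.32 (Itgav) to 0.26 (Itga5). Of the 20, 13 were negative and 7 positive, with a median of −0.065 beside −0.020 over all probe sets. Their median absolute size was 0.11, against 0.087 over all probe sets. All 20 intervals (95%, from the limma fit) lay inside a 2-fold difference in signal, and 18 of them inside 1.5-fold. These bounds hold for the array signal and not for the amount of transcript, and 3 of the 20 probe sets, beside 4330 of all 22626, had a mean above 5.79, the level of the brightest of 27 controls for Bacillus genes, which hamster RNA should not match. In whole tissue, fewer cells of a type and less RNA per cell cannot be told apart.

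**Figure D1:**
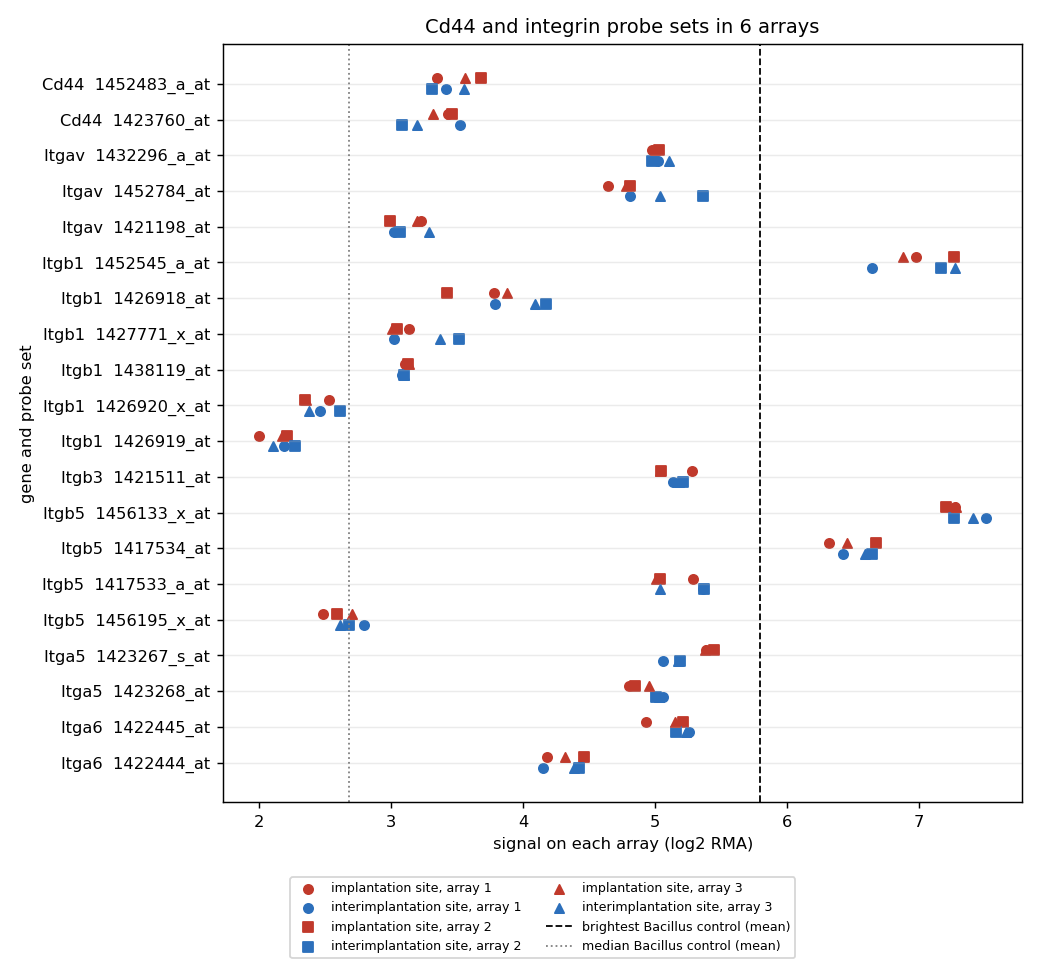
Signal of the 20 receptor probe sets on each array (horizontal axis, log2 RMA), one row per probe set, with implantation arrays in red and interimplantation arrays in blue and one marker shape per array number. The colours are mixed in 17 of the 20 rows, and only Itgb1 1452545_a_at, Itgb5 1456133_x_at and Itgb5 1417534_at lie to the right of the brightest Bacillus control at 5.79.

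Cd44, the receptor of hyaluronan, had 2 probe sets, both positive and both overlapping between the groups. The brighter, 1452483_a_at, read 3.35, 3.68 and 3.56 on the implantation arrays and 3.41, 3.31 and 3.55 on the interimplantation arrays. The highest and the second highest values were of implantation arrays, but the lowest implantation array lay below 2 of the interimplantation arrays. The difference was 0.11 (SE 0.10, 95% interval −0.12 to 0.33, adjusted p = 0.714). The other, 1423760_at, read 3.43, 3.46 and 3.32 at the sites and 3.52, 3.09 and 3.19 between them. Its single highest value was that of interimplantation array 1, and the difference was 0.14 (SE 0.11, 95% interval −0.10 to 0.38, adjusted p = 0.651). Neither probe set exceeded the brightest Bacillus control.

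Itgav, the alpha chain shared by the classical osteopontin and vitronectin receptors, was measured by 3 probe sets that did not move together. Probe set 1432296_a_at read 4.97, 5.03 and 5.00 at the implantation sites and 5.02, 4.98 and 5.10 between them. These 6 values were close, and the difference of −0.033 (SE 0.080) had an interval of −0.21 to 0.14 (adjusted p = 0.904). Probe set 1452784_at read 4.64, 4.81 and 4.78 at the sites and 4.81, 5.36 and 5.03 between them, so that interimplantation array 2 was highest and array 1 lay level with implantation array 2. The difference was −0.32 (SE 0.12, 95% interval −0.59 to −0.053, adjusted p = 0.253), one of the 3 with an unadjusted p under 0.05. The dimmest, 1421198_at, differed by 0.014 (95% interval −0.20 to 0.23, adjusted p = 0.971).

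Of the beta partners of Itgav, Itgb3, the chain also known from platelets, had a single probe set. It read 5.28, 5.04 and 5.04 at the implantation sites and 5.13, 5.21 and 5.18 between them. The interimplantation arrays fell within the range of the implantation arrays, and the difference was −0.054 (SE 0.091, 95% interval −0.25 to 0.14, adjusted p = 0.850).

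Itgb5, which forms a vitronectin receptor with Itgav, was negative in all 4 of its probe sets, from −0.15 to −0.071, and was called in none. The brightest, 1456133_x_at, read 7.27, 7.20 and 7.28 at the sites and 7.51, 7.26 and 7.41 between them. Interimplantation arrays 1 and 3 were above every implantation array and array 2 was not, for a difference of −0.14 (SE 0.088, 95% interval −0.33 to 0.050, adjusted p = 0.530). Probe set 1417534_at read 6.32, 6.68 and 6.45 at the sites and 6.42, 6.64 and 6.59 between them, with implantation array 2 the highest of all. Its difference was −0.071 (SE 0.10, adjusted p = 0.828). Probe set 1417533_a_at differed by −0.15 (SE 0.11, adjusted p = 0.628), and 1456195_x_at, with a mean of 2.65 below the median of the Bacillus controls (2.68), by −0.10 (SE 0.090, adjusted p = 0.682).

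**Figure D2:**
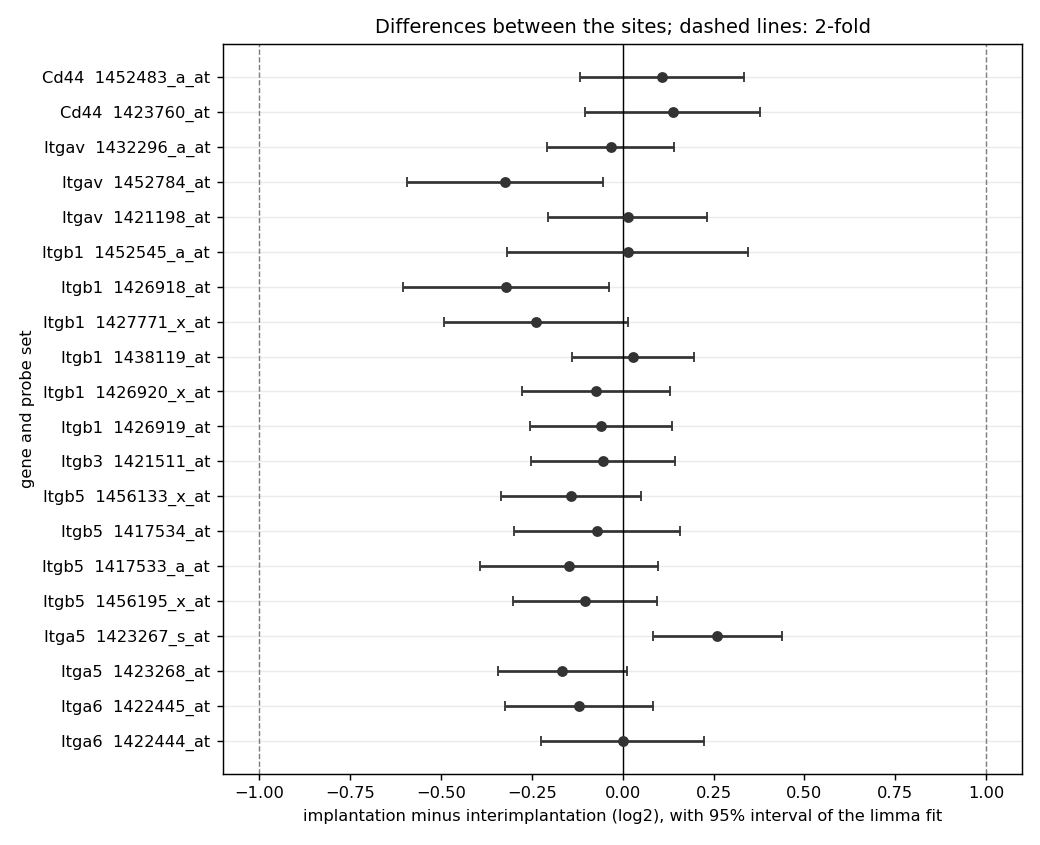
Difference between the sites for the 20 receptor probe sets (implantation minus interimplantation, log2), with 95% intervals of the limma fit and dashed lines at a 2-fold difference. No interval reaches 2-fold, and the intervals of Itgav 1452784_at, Itgb1 1426918_at and Itga5 1423267_s_at leave out 0 before adjustment.

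Itgb1, the beta chain of the largest integrin subfamily, had 6 probe sets, of which 4 were negative and 2 positive. The brightest, 1452545_a_at, read 6.97, 7.27 and 6.87 at the implantation sites and 6.64, 7.17 and 7.27 between them. Interimplantation array 1 was lowest and array 3 highest, so the spread within that group (SD 0.34, n = 3) exceeded the difference of 0.014 (SE 0.15, 95% interval −0.32 to 0.35, adjusted p = 0.981). Probe set 1426918_at read 3.78, 3.43 and 3.88 at the sites and 3.79, 4.17 and 4.09 between them. Interimplantation arrays 2 and 3 were above all others, array 1 was not, and the difference was −0.32 (SE 0.13, 95% interval −0.60 to −0.037, adjusted p = 0.283), again with an unadjusted p under 0.05.

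Probe set 1427771_x_at of Itgb1 had the same order of interimplantation arrays, at 3.02, 3.52 and 3.37, against 3.13, 3.04 and 3.01 at the sites, and differed by −0.24 (SE 0.12, adjusted p = 0.392). Probe set 1438119_at separated the groups, at 3.11, 3.13 and 3.14 against 3.09, 3.10 and 3.10, but by only 0.029. That difference was smaller than its standard error in the fit (0.077, adjusted p = 0.912), which takes part of its spread from the other probe sets. The remaining 1426920_x_at and 1426919_at had means of 2.45 and 2.16, below the median of the Bacillus controls, and differed by −0.073 and −0.060.

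The 2 probe sets of Itga5, the alpha chain of the fibronectin receptor, both separated the groups, but in opposite directions. The brighter, 1423267_s_at, read 5.39, 5.44 and 5.37 at the implantation sites and 5.06, 5.19 and 5.18 between them. All implantation arrays were above all interimplantation arrays, with 5.40 ± 0.037 against 5.14 ± 0.073 (SD, n = 3). The difference of 0.26 (SE 0.081, 95% interval 0.083 to 0.44) was 1.20-fold. It had the smallest p of the 20 but was not called (adjusted p = 0.148). The other, 1423268_at, read 4.80, 4.85 and 4.96 at the sites and 5.06, 5.01 and 5.03 between them. Here every implantation array lay below every interimplantation array, and the difference was −0.17 (SE 0.082, 95% interval −0.34 to 0.013, adjusted p = 0.404). The ending _s_at marks a probe set whose probes match several transcripts, which the other Itga5 probe set does not carry; whether this has a part in the opposite signs was not tested.

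Likeness to 1423267_s_at was measured by the root mean square distance between log2 values centred on their mean over the 6 arrays. It was the one brightest probe set of a receptor gene with an unadjusted p under 0.05, the condition set for this search. The nearest probe sets of other genes were those of Klhdc8a (0.022), Coro6 (0.023) and Ighg3 (0.023), which differed between the sites by 0.26, 0.24 and 0.24 and were not called by limma (adjusted p = 0.143, 0.206 and 0.185). They were picked for closeness on the same 6 arrays, so their like differences follow from the search and are no separate result.

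Itga6, an alpha chain of laminin receptors of epithelia, had 2 probe sets with overlapping groups. Probe set 1422445_at read 4.93, 5.21 and 5.15 at the sites and 5.26, 5.16 and 5.23 between them, where implantation array 1 stood below the rest. The difference was −0.12 (SE 0.093, 95% interval −0.32 to 0.083, adjusted p = 0.637). Probe set 1422444_at read 4.18, 4.46 and 4.32 against 4.15, 4.42 and 4.38, and its difference was nearly 0 (0.00044, SE 0.10, adjusted p = 0.999).

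**Figure D3:**
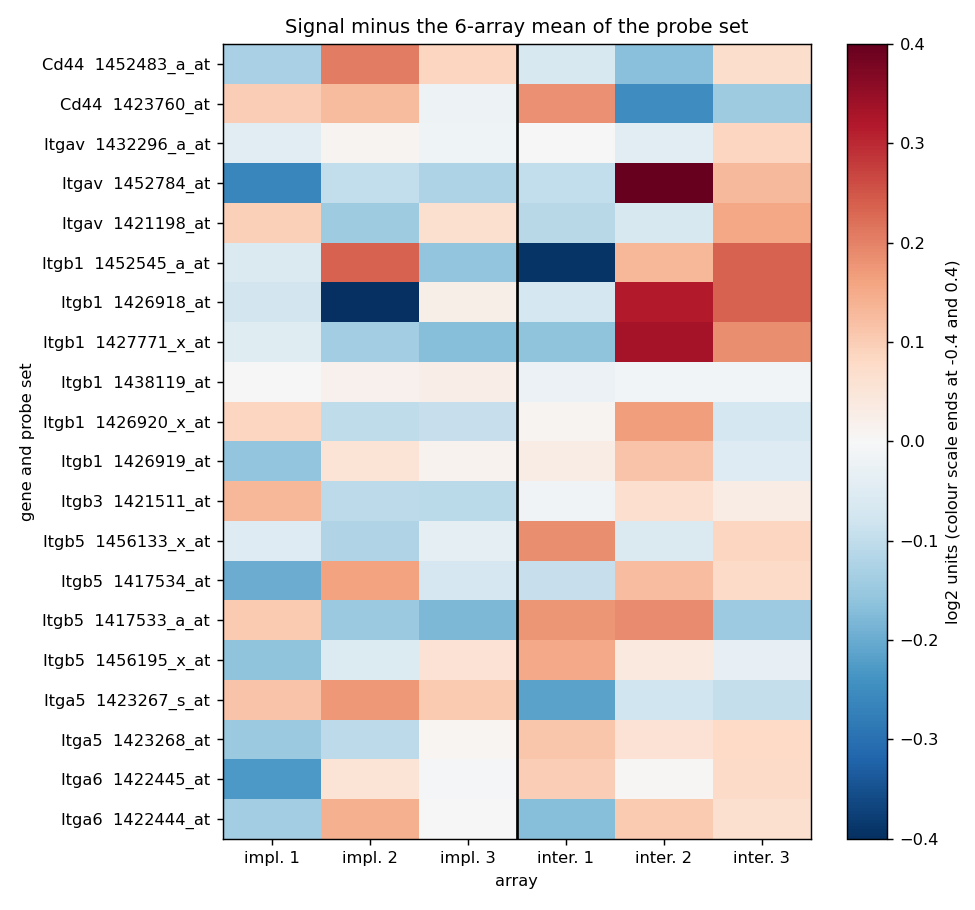
Signal of the 20 receptor probe sets minus the mean of the probe set over the 6 arrays (colour, log2 units, red above and blue below), with implantation arrays left and interimplantation arrays right of the line. Interimplantation array 2 is the highest array in 6 rows and interimplantation array 3 the lowest in 0, and the rows of one gene often differ in colour.

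Across the 20 receptor probe sets, single arrays differed by as much as the groups. Interimplantation array 2 held the highest value in 6 of them and interimplantation array 1 in 5, while implantation array 1 held the lowest in 7. The median of the centred values ran from −0.054 to −0.010 on the implantation arrays and was −0.018, 0.062 and 0.073 on interimplantation arrays 1, 2 and 3. Interimplantation array 1 thus lay within the range of the implantation arrays. Over all probe sets the medians ran from −0.020 to 0.00048 on the implantation arrays. They were −0.0012, 0.018 and 0.011 on interimplantation arrays 1, 2 and 3. Implantation array 1 was thus the lowest there too, and the order of the arrays is not particular to the receptor genes. Without interimplantation array 1, 2 of the 20 probe sets were called lower at the implantation site, beside 1.77% of all probe sets in that direction. They were Itgav 1452784_at (−0.45, adjusted p = 0.0419) and Itgb1 1427771_x_at (−0.38, adjusted p = 0.0462), by the same limma fit. In each of the other settings tried, the count stayed at 0.

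Signs are relative to the scaling of the arrays. The hybridisation controls, bacterial and phage transcripts normally added in equal amounts to every sample, averaged 6.64 ± 0.17 on the implantation arrays and 7.03 ± 0.27 on the interimplantation arrays (SD, n = 3). With every array scaled to them, every difference shifts up by the same amount, the median of all probe sets from −0.020 to 0.38 and that of the 20 receptor probe sets from −0.065 to 0.33. This shift exceeds the most negative receptor difference, so positive signs under it are no separate result. The SE became 0.215 for each of the 20, wider than in the main fit. None of the 20 was called, and the smallest adjusted p of that limma fit was 0.0585 (Itga5), which is no separate check either. Directions of the receptor genes therefore hold only in relation to the other probe sets of the array.

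The other integrin subunits gave a like picture. Of 16 measured genes outside the receptor group, each by its brightest probe set, 0 passed in either direction, and the median difference was −0.026, beside −0.020 over all 12393 genes. At an unadjusted p under 0.05, 2 were lower and 0 higher, where 8.67% and 6.14% of all genes were. Itga3, an alpha chain of epithelial laminin receptors, read 6.15, 6.18 and 6.28 at the sites and 6.46, 6.31 and 6.54 between them, without overlap. Its difference was −0.24 (SE 0.088, adjusted p = 0.241), and its 3 probe sets ran from −0.37 to −0.16. Itgb4, the laminin-binding partner of Itga6 in hemidesmosomes, read 6.29, 6.27 and 6.45 against 6.56, 6.68 and 6.45, with the groups apart by a narrow margin and a difference of −0.23 (SE 0.092, adjusted p = 0.284). Itgax, a chain of myeloid cells, was at −0.12 (adjusted p = 0.588).

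The ligands were measured in part. In the list of RGD-type adhesion ligands and their relatives, 1 of 18 genes fell, 0 rose and 17 did not pass, with a median of −0.0045. Over all genes by the brightest probe set, 1.36% were called higher and 1.18% lower. Tgfbi, a secreted matrix protein that binds integrins, fell to 5.50 ± 0.27 at the sites from 6.02 ± 0.0062 between them (SD, n = 3), a difference of −0.52 (SE 0.12) at an adjusted p of 0.0414, while its 4 probe sets ran from −0.52 to 0.11. The matricellular gene Ccn2 was at −0.32 (adjusted p = 0.157) and tenascin C, Tnc, at −0.21 (adjusted p = 0.264). Among laminins and other basement membrane genes, 1 of 15 fell and 0 rose, with a median of 0.0065. Lama2, the laminin alpha chain of muscle basement membranes, fell to 5.26 ± 0.17 at the sites from 5.84 ± 0.22 between them (SD, n = 3), a difference of −0.58 (SE 0.12) at an adjusted p of 0.0268. The widely expressed laminin chain Lamc1 was at 0.33 (SE 0.090, adjusted p = 0.0895, and 0.0380 without the dim probe sets) and the linker Nid2 at 0.21 (adjusted p = 0.251).

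Beside Cd44, a list of hyaluronan genes and Cd44 partners had 1 of 19 genes lower and 0 higher, with a median of −0.066. Cd74, the invariant chain of MHC class II, which also forms a receptor complex with Cd44, fell to 7.17 ± 0.074 at the sites from 7.65 ± 0.21 between them (SD, n = 3), a difference of −0.47 (SE 0.11) at an adjusted p of 0.0417. The proteoglycan Srgn was at 0.28 (adjusted p = 0.188) and the hyaluronan synthase Has3 at −0.22 (adjusted p = 0.253). Of 10 genes listed for the processing or modification of osteopontin, 1 fell and 0 rose, with a median of 0.039. The lysosomal protease Ctsb fell to 6.82 ± 0.11 at the sites from 7.26 ± 0.16 between them (SD, n = 3), a difference of −0.43 (SE 0.10) at an adjusted p of 0.0467, and its 4 probe sets ran from −0.43 to −0.025. Tgm2, a transglutaminase that cross-links osteopontin, was at 0.30 (adjusted p = 0.130), with its 6 probe sets from −0.092 to 0.30, and the protease Ctsd at −0.14 (adjusted p = 0.518).

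On the cytoplasmic side, 0 of 27 focal adhesion genes passed in either direction, with a median of 0.012. At an unadjusted p under 0.05, 1 was higher and 3 were lower, where 6.14% and 8.67% of all genes were. The lower genes were the linker Vcl (−0.40, adjusted p = 0.166), the kinase Src (−0.29, adjusted p = 0.205) and the adaptor Pxn (−0.24, adjusted p = 0.264), of which Vcl and Pxn had other probe sets with positive differences (up to 0.17 and 0.099). The higher gene, named after its values were seen, was Zyx, a protein of mature adhesions (0.21, SE 0.085, adjusted p = 0.291), whose other probe set was at −0.037. Of 23 other attachment molecules, 1 fell and 0 rose, with a median of −0.080. Lgals3, a galactose-binding lectin, fell to 4.97 ± 0.16 at the sites from 5.43 ± 0.12 between them (SD, n = 3), a difference of −0.46 (SE 0.10) at an adjusted p of 0.0370. The scavenger receptor Cd36 (−0.31, adjusted p = 0.136) and the surface glycoprotein Bsg (−0.26, adjusted p = 0.142) did not pass.

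**Figure D4:**
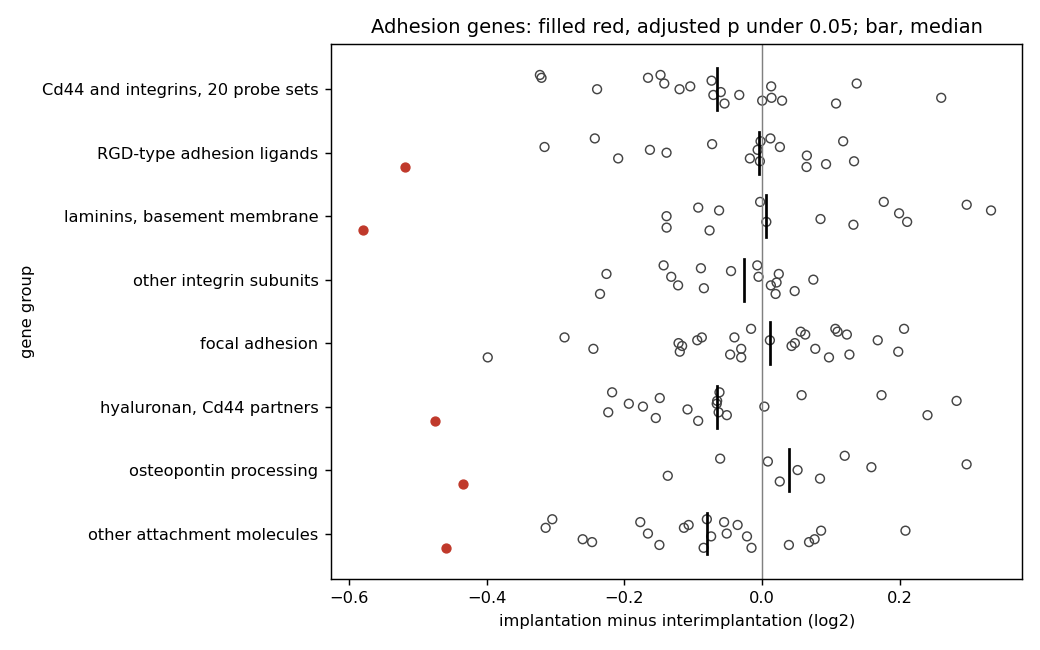
Difference between the sites (horizontal axis, log2, implantation minus interimplantation) for the 20 receptor probe sets and, below, for the genes of the 7 adhesion lists, each gene by its brightest probe set. Filled red points passed at an adjusted p under 0.05 and black bars are medians. Of the listed genes 5 passed, all lower (Tgfbi, Lama2, Cd74, Ctsb and Lgals3), beside 1.18% lower and 1.36% higher over all genes. None of the receptor probe sets passed.

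In all, 5 of the 127 genes of these 7 lists fell and 0 rose, each gene counted once. Over all genes, 1.18% were called lower and 1.36% higher. Tgfbi, Lama2 and Lgals3 had means of 5.76, 5.55 and 5.20, below the brightest Bacillus control (5.79). They were therefore left out of the fit without dim probe sets. Cd74 and Ctsb lay above that control and were called in that limma fit (adjusted p = 0.0207 and 0.0223). Each of the 5 calls was lost in most of the fits that left out 1 array, while the differences kept their sign. Those fits rest on fewer arrays, so a lost call need not come from the array left out. Without implantation array 1, Lama2 (−0.62) and Lgals3 (−0.51) differed by more than with all arrays and were not called. Leaving out 1 array at a time gave differences from −0.62 to −0.37 for Tgfbi, −0.70 to −0.48 for Lama2, −0.59 to −0.39 for Cd74, −0.53 to −0.37 for Ctsb and −0.53 to −0.37 for Lgals3. The adjusted p-values of the same fits ran from 0.0423 to 0.136 for Tgfbi, 0.00318 to 0.115 for Lama2, 0.0105 to 0.166 for Cd74, 0.00907 to 0.224 for Ctsb and 0.0350 to 0.135 for Lgals3. Of these 6 fits, Lama2 and Ctsb kept their calls only without interimplantation array 1, Cd74 and Lgals3 only without interimplantation array 2, and Tgfbi only without implantation array 3 or interimplantation array 1. Once the arrays were scaled to the hybridisation controls, none of the 5 was called (adjusted p from 0.428 for Lama2 to 0.869 for Ctsb). That scaling raises every difference alike and gave each of the 5 the same SE of 0.215. The loss of these calls follows from it and is no separate result on these genes. Ctsb, with its difference unchanged, lost its call without shared probe sets (adjusted p = 0.0561), here all those ending in _x_at, _s_at or _a_at.

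The mean levels of some lists of cell type markers moved with the groups. The mean level of 15 epithelial markers, 6 of them above the brightest Bacillus control, was 5.16 to 5.23 on the implantation arrays and 5.48 to 5.56 on the interimplantation arrays, with 3 of the 15 lower (Cd24a, Cldn7 and Wnt7b) and 0 higher. For 11 smooth muscle markers, 4 of them above that control, the mean level was 5.25 to 5.47 against 5.65 to 5.88, with 2 lower (Tagln and Actg2). The ranges did not overlap in either list, and their part in the values of the epithelial chains Itga6, Itga3 and Itgb4 and of Lama2 was not tested. The 15 epithelial markers did not move alike, with 12 not called, 13 negative and 2 positive. Their differences ran from −1.99 (Cd24a, whose 3 probe sets ran from −1.99 to −0.13) to 0.22. Markers of macrophages (17 genes, 4.78 to 4.82 against 4.78 to 4.91), T and NK cells (13 genes, 4.84 to 4.91 against 4.87 to 4.95), endothelium (12 genes, 5.06 to 5.10 against 5.09 to 5.17) and platelets (6 genes, 5.17 to 5.30 against 5.20 to 5.29) overlapped between the groups and held 0 called genes. Of the 9 measured uterine identity genes, 5 exceeded the brightest Bacillus control, among them Hoxa11, at 7.23 at the sites and 7.45 between them, and 0 were called. Of 11 trophoblast and embryo markers 1 exceeded it, Hand1, and 0 were called, although their mean level was lower on the implantation arrays (4.24 to 4.30) than on the interimplantation arrays (4.36 to 4.43). Krt18 (−0.47, adjusted p = 0.0866 in the limma fit) stands in both this list and the epithelial one, and the mean without it was not taken. Of 12 stromal markers 1 rose, the WNT ligand Wnt4 (0.63, adjusted p = 0.00633), and 0 of 5 erythroid markers were called.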

How the data were processed

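The authors deposited 1 log2 value per probe set and array, made with Partek 6.6 and RMA (background correction, normalization between arrays and summary over probes), per the submitters' processing notes; the log base was taken from RMA's usual output and the range of the values. Of 22690 probe sets, 64 controls were left out. Probe sets were named by the platform annotation, which gave 1 symbol for 20380 of them, several for 691 and none for 1555; no sequences were used. The arrays were compared with limma 3.58.1 in R 4.3.3 (lmFit and eBayes, group as the only term, two-sided), adjusted by Benjamini-Hochberg over 22626 probe sets and checked on simulated data. Each listed gene was represented by its probe set with the highest mean. Of each adhesion list, every called gene and the 3 genes with the smallest p are named, and of each marker list at most 3 genes. Krt18 is named in addition, as a gene of both the epithelial and the trophoblast list. The receptor genes and lists were chosen with earlier results of these data known. Array medians ran from 4.55 to 4.57, and arrays of a group correlated at 0.987 or more across probe sets. The number of arrays limits the precision. Alternatives changed the variance model, array weights, replicate block, normalization, scaling, filters and arrays used.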

Additional observations from a re-analysis of the deposited data

How the results depend on the processing

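The count of called receptor probe sets was 0 with a trended and robust variance, array weights, repeated quantile normalization, scaling to the hybridisation controls, without dim probe sets (3 left) and without shared probe sets (11 left), and 0 to 2 when leaving out 1 array. Shared here means any probe set ending in _x_at, _s_at or _a_at, whether or not its probes match other genes. The calls over all probe sets, 284 higher and 238 lower, became 752 and 13 with the scaling and 138 and 96 without shared probe sets, where fewer were tested. Array weights gave 363 lower. Leaving out 1 array gave 117 to 329 higher and 88 to 401 lower. The replicate number as a block in the limma fit gave 0 called receptor probe sets, with a smallest adjusted p of 0.147 (Itgav). Over all probe sets it gave 294 higher and 240 lower. Same-numbered arrays deviated together at −0.0904, 0.0705 and −0.0276, and differently numbered ones at −0.0927 to 0.101. These values do not show which arrays share an animal, and the numbers were not taken as pairs. If the same animals gave both sites, the main fit and the permutation test leave that pairing out. The scaling subtracts each array's control level and so raises every difference alike, which by construction turned the signs of Itgav (0.364 and 0.0744), Itgb1 (0.0768, 0.158, 0.324 and 0.337), Itgb3 (0.343), Itgb5 (0.255, 0.327, 0.25 and 0.293), Itga5 1423268_at (0.232), Itga6 1422445_at (0.277), Src (0.11), Pxn (0.152), Has3 (0.174), Ccn2 (0.0812), Tnc (0.188), Ctsd (0.26), Cd36 (0.0828), Bsg (0.137), Itga3 (0.162), Itgb4 (0.171) and Itgax (0.275). Lamc1, Srgn and Tgm2 were called there, which rests on the same shift and is no separate result. Array weights turned Itgav 1421198_at (−0.00268), Itgb1 1452545_a_at (−0.0929) and Itga6 1422444_at (−0.0447); the cause was not tested. Leaving out 1 array turned Itgav 1432296_a_at (−0.0615 to 0.00252), Itgav 1421198_at (−0.0392 to 0.0948), Itgb1 1452545_a_at (−0.178 to 0.136), Itgb1 1426919_at (−0.102 to 0.00363), Itgb5 1417534_at (−0.168 to 0.0115) and Itga6 1422444_at (−0.0841 to 0.0707). Low signal over the Bacillus controls limits the receptor probe sets and most others (3 of 20 and 4330 of 22626 exceeded the brightest). The median of these controls was exceeded by 17 of 20 and 20467 of 22626.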
